A study of Mus musculus with 12 samples.

Results

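A set of 35 genes of DNA replication and S phase was followed through 4 states of C2C12, a mouse muscle precursor cell line (myoblasts) that leaves the cell cycle and fuses into myotubes when serum is lowered. The genes were chosen by name and function and were found by symbol in the deposited table, which lists 21232 genes. All 35 were present and all passed the filter on low counts, which kept 12736 genes, and the lowest count of any of them in any library was 124. Messenger RNA was sequenced from 12 libraries in 4 groups of 3, lettered A, B and C. The proliferation group was taken at 0 h in growth medium with 10% fetal bovine serum. The control group had spent 48 h in differentiation medium with 2% horse serum. The TNF group was differentiated in the same medium for 48 h with TNF alpha, an inflammatory cytokine, at 10 ng/ml. In the Fbxl2 siRNA group, RNA interference against Fbxl2, which encodes the substrate-binding subunit of a ubiquitin ligase, preceded the RNA collection at 48 h of differentiation. The cells of every group carry the strain label C57BL/6. No label says whether control, TNF or proliferating cells received a non-targeting siRNA, and the proliferating cells differ from the control cells in medium, density and time together. The study asked how TNF acts on muscle formation through the Fbxl2 gene.

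DNA is copied once per cell cycle. Before S phase, Cdc6 and Cdt1 load the ring of Mcm2 to Mcm7 onto origins (licensing). The ring becomes an active helicase when Cdc45 and the GINS complex join it, DNA polymerases then copy both strands around the sliding clamp Pcna, and ribonucleotide reductase supplies the deoxynucleotides. Many of these genes are transcribed under E2F factors, which the retinoblastoma protein holds in check in cells that have left the cycle, as myoblasts do when they become myotubes. In bulk RNA, fewer cells in S phase and less RNA of these genes per cell cannot be told apart.

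The replication genes were highest in proliferating cells, lowest in control cells at 48 h, and in between after TNF or Fbxl2 siRNA. From proliferation to control, 35 of 35 fell, with a median log2 fold change of -1.56, where 38.9% of all genes tested were called lower. With TNF 34 of 35 were higher than in control (median 0.76), where 31.0% of all genes were called higher. After Fbxl2 siRNA 33 of 35 were higher than in control (median 0.75), where 34.1% of all genes were called higher. Members that departed from this course included Rfc3, called higher in neither treated group, and Rrm1, not called higher after Fbxl2 siRNA. Rrm2 was only 1.13-fold above control with TNF, and E2f1 was only 1.11-fold lower in control than in proliferation. Gins2 (1.20-fold) and Ccne1 (1.23-fold) also rose little with TNF.

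The fits drew on library totals between 26416978 and 32917763 counts, of which the 35 genes together took 0.310% to 0.351% in proliferation, 0.126% to 0.134% in control, 0.192% to 0.198% with TNF and 0.196% to 0.201% after Fbxl2 siRNA. Fbxl2 itself was at 31.9, 32.6 and 34.4 CPM (counts scaled to the TMM-adjusted library total) in control and at 22.5, 20.6 and 23.6 CPM after its siRNA. The libraries of the 2 groups did not overlap. Such a gap is common, since 34.2% of all genes tested lay below control without overlap after siRNA and 38.6% above it. Fbxl2 was also below control without overlap with TNF (27.7, 29.2 and 29.7 CPM) and in proliferation (27.2, 26.7 and 24.0 CPM). Proliferation library A was the lowest of its group for 32 of the 35 genes and B the highest for 20. The share of counts from mitochondrially encoded genes also moved with the groups, at 0.720% to 0.750% in proliferation, 1.70% to 1.73% in control, 1.47% to 1.70% with TNF and 1.23% to 1.40% after Fbxl2 siRNA. Its part in the results was not tested. Whether the letters stand for separate cultures is not stated. The p-values set a difference of group means against the spread between libraries within groups, and that spread may be only technical.

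As a description, the promoters of the members were searched for the element that E2F factors bind. Whether the element had a part in the changes was not tested. RefSeq windows from 250 bases before to 50 bases after a start site (GRCm38.p6) were found for 30 of the 35 members, and not for Pole, Mcm4, Gins1, Gins2 and Ccne2. The element was searched on both strands as TTTCCCGC, TTTCGCGC, TTTGCCGC or TTTGGCGC, and in a shorter form without the first T, which every long form contains. The long form was in the windows of 12 of the 30 members (40%) and in 2.26% of all 32851 windows, or 4.54% of the tested genes that had a window. The short form was in 19 of the 30 (63.3%), against 9.57% of all windows and 19.0% of tested genes. The CCAAT box, searched as CCAAT on both strands, was in 17 of the 30 (56.7%), against 37.4% of windows and 43.5% of tested genes. The cell cycle homology region, as TTTGAA on both strands, was in 4 of the 30 (13.3%), against 17.9% of windows and 14.2% of tested genes. A match is a stretch of letters and no measured binding site. Promoter stretches of 5 members are shown, with E2F elements in capitals (a run of capitals can hold overlapping elements on opposite strands): Mcm6 and Mcm5, which hold several, Mcm2, which also rose in both treated groups and holds none in its window, and Rrm1 and Rfc3, which were not called higher after Fbxl2 siRNA.
Mcm6: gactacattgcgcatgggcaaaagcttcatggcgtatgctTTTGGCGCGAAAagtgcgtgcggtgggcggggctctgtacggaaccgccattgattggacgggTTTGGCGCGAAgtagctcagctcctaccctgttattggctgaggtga
Mcm5: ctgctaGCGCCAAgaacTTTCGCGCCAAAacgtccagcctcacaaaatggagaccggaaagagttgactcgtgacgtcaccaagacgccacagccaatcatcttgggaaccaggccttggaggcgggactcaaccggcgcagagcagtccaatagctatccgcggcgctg
Mcm2: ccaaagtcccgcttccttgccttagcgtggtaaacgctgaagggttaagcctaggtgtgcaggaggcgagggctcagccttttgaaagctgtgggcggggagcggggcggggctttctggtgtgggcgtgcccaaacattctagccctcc
Rrm1: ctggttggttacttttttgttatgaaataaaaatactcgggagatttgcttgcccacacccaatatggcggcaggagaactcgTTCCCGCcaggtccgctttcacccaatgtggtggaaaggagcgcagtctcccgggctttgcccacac
Rfc3: gacgtcgcacgcTTTCGCGCtcGCGGGAAA
The first 4 lie directly before the RefSeq start site, in no annotated exon: Mcm6 at chr1:128359706-128359855 (minus strand), Mcm5 at chr8:75109339-75109508 (plus strand), Mcm2 at chr6:88898781-88898930 (minus strand) and Rrm1 at chr7:102441545-102441694 (plus strand). The Rfc3 stretch, chr5:151651201-151651230 (minus strand), spans the RefSeq start site, with 22 bases before it and 8 from it on, and overlaps annotated exons. Mcm6 held 3 long elements before its start, Mcm5 held 2, Rrm1 held only a short one, and Rfc3 held 2 long ones around its start.

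**Figure D1:**
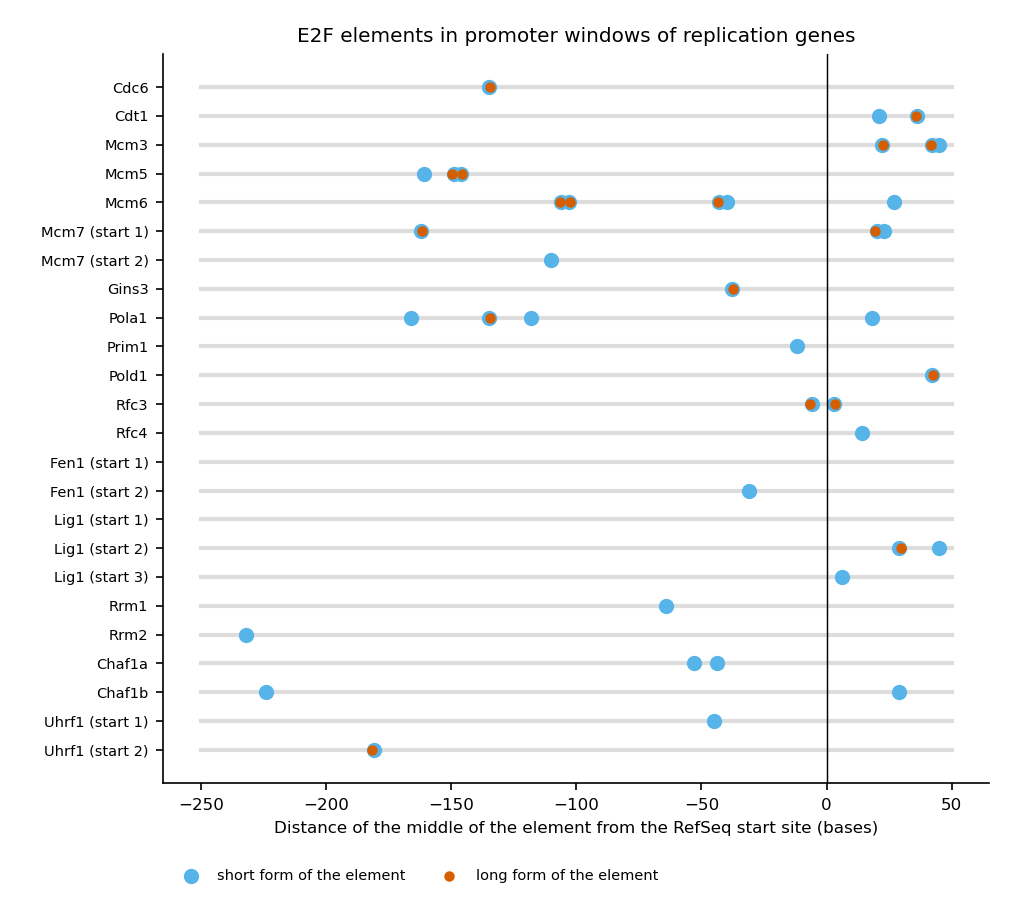
Each grey bar is a RefSeq promoter window of a replication gene that holds an E2F element, from 250 bases before to 50 bases after the start site (black line at 0), and the x axis gives the distance in bases. Large blue points are short forms and small orange points long forms. Genes with several start sites have a row for each. The elements of Mcm3, Cdt1 and Pold1 lie after the start, those of Mcm5, Cdc6 and Gins3 before it.

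The licensing genes are described first. All differences are log2 fold changes from edgeR's quasi-likelihood fit, with a standard error (SE) and a p adjusted over all 12736 genes tested, and a call means an adjusted p under 0.05. From proliferation to control 38.4% of all genes tested were called higher, about as many as were called lower, so a call alone is common in these data, and the median over all genes was -0.00084. All 8 licensing genes fell, by 1.17 (Mcm6) to 1.86 (Mcm5). Mcm5, a subunit of the helicase ring, stood at 110, 116 and 121 CPM in proliferation, at 28.8, 32.7 and 34.3 in control, at 59.3, 58.5 and 67.4 with TNF, and at 55.7, 56.4 and 54.8 after Fbxl2 siRNA. The 4 groups did not overlap in Mcm5. It fell by 1.86 from proliferation to control (SE 0.064, adjusted p = 5.4e-16), and was higher than control by 0.95 with TNF (SE 0.065, adjusted p = 9.5e-11) and by 0.80 after siRNA (SE 0.066, adjusted p = 1.4e-09). Groups without overlap were common over all genes tested. In control 39.7% lay below proliferation, with TNF 36.2% lay above control, and after siRNA 38.6% did. Between TNF and siRNA, 32.9% of all genes lay apart with TNF higher and 33.4% with siRNA higher. Of the 35 members, 8 and 12 did so.

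Cdc6, the ATPase that loads the ring, was at 23.7, 35.9 and 31.8 CPM in proliferation, 8.66, 8.19 and 9.39 in control, 18.6, 16.8 and 19.4 with TNF and 16.3, 16.03 and 17.7 after siRNA. TNF and siRNA libraries overlapped, and all of them lay between control and proliferation. It fell by 1.80 (SE 0.13, adjusted p = 5.4e-09), and by 1.95 without proliferation library A. It rose with TNF by 1.06 (SE 0.13, adjusted p = 7.5e-06) and after siRNA by 0.93 (SE 0.13, adjusted p = 2.6e-05). Its loading partner Cdt1 averaged 32.2 ± 1.43 CPM in proliferation, 10.4 ± 0.776 in control, 17.8 ± 0.963 with TNF and 16.6 ± 0.203 after siRNA (SD, n = 3 in each group here and below). Cdt1 fell by 1.63 and rose by 0.77 with TNF and by 0.67 after siRNA.

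The remaining ring subunits followed the same course at other levels. Mcm2 had 133, 137 and 143 CPM in proliferation, 45.8, 47.4 and 49.1 in control, 78.2, 80.9 and 82.5 with TNF and 66.6, 71.997 and 74.5 after siRNA, again with 4 groups that did not overlap. Mcm3 fell from 153 ± 6.82 to 44.8 ± 1.43 CPM, and was at 84.03 ± 1.87 with TNF and 75.5 ± 1.12 after siRNA. Mcm4 averaged 159 ± 16.1 CPM in proliferation, 65.4 ± 0.752 in control, 103 ± 3.62 with TNF and 90.7 ± 1.501 after siRNA. Mcm6, the most abundant of the ring by counts per kb of exon, averaged 242 ± 10.4, 107 ± 2.69, 172 ± 6.64 and 170 ± 0.574 CPM in the same order of groups. For Mcm7 the means were 167 ± 6.00, 58.1 ± 1.23, 87.6 ± 4.27 and 94.6 ± 1.34 CPM, so that among the licensing genes it alone had a higher mean after siRNA than with TNF.

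**Figure D2:**
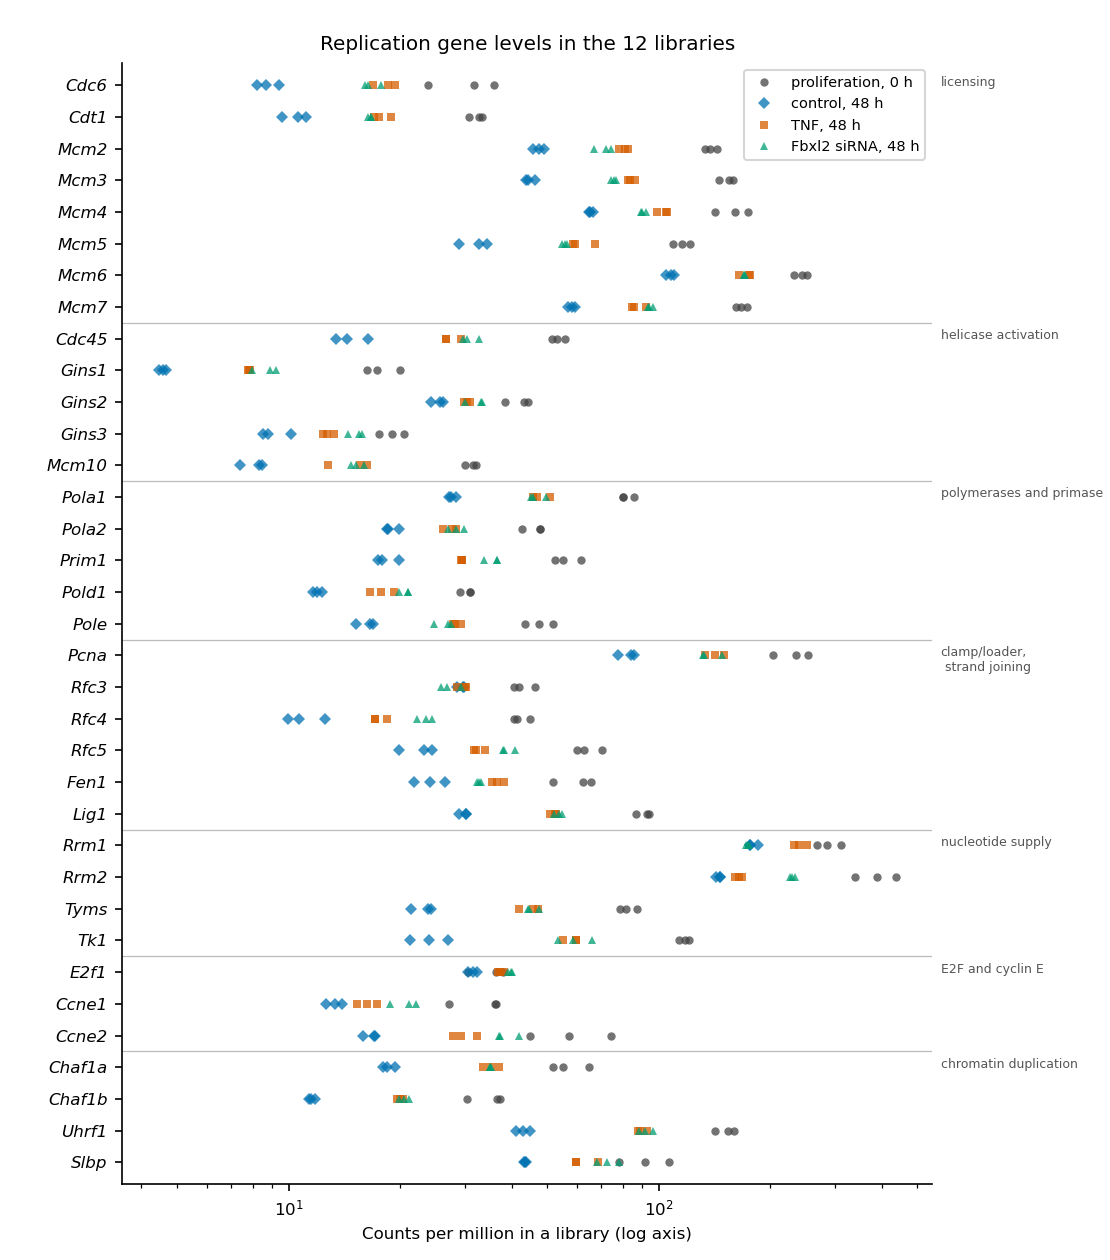
Each row is a replication gene, grouped by role, and each point a library, with CPM on a log x axis: grey circles are proliferation, blue diamonds control, orange squares TNF and green triangles Fbxl2 siRNA. Control points lie left of the proliferation points in every row but that of E2f1, and TNF and siRNA points lie between them in most rows.

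Of all genes tested, 23.6% were called lower with TNF than in control and 29.8% lower after Fbxl2 siRNA than in control. The median over all genes was 0.029 with TNF and 0.026 after siRNA. These comparisons use the same 3 control libraries, so a high or low control value enters both. All 8 licensing genes rose in each comparison, with a median of 0.77 with TNF and 0.69 after siRNA.

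The 5 genes of helicase activation fell by a median of 1.86 from proliferation to control and were all higher than control in each treated group, with a median of 0.77 for TNF and 0.93 for siRNA. Cdc45, which joins the ring at origin firing, was at 51.3, 53.2 and 55.8 CPM in proliferation, 14.4, 13.4 and 16.4 in control, 26.7, 26.6 and 29.3 with TNF and 30.3, 29.6 and 32.8 after siRNA. It fell by 1.86 (SE 0.069, adjusted p = 1.5e-15), and rose by 0.90 with TNF (SE 0.072, adjusted p = 1e-09) and by 1.07 after siRNA (SE 0.071, adjusted p = 6.7e-11). The siRNA libraries all lay above the TNF libraries.

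The GINS subunits did not move equally. Gins1 fell by 1.96, from 17.8 ± 1.93 to 4.57 ± 0.105 CPM, and was at 7.81 ± 0.0552 with TNF and 8.69 ± 0.658 after siRNA. Gins2 fell by only 0.73, from 42.0 ± 3.09 to 25.3 ± 0.952 CPM, and rose by 0.26 with TNF (SE 0.063, adjusted p = 0.0014) and by 0.34 after siRNA (SE 0.063, adjusted p = 7.1e-05). Gins3 had 17.5, 20.4 and 19.0 CPM in proliferation, 10.2, 8.78 and 8.52 in control, 12.4, 12.7 and 13.2 with TNF and 15.8, 14.5 and 15.5 after siRNA. Its siRNA libraries came closer to proliferation than its TNF libraries did, with a rise of 0.73 (SE 0.082, adjusted p = 1.4e-07) against 0.47 with TNF (SE 0.083, adjusted p = 5.7e-05). Mcm10, a scaffold that links the helicase to the primase polymerase, averaged 31.1 ± 1.10 CPM in proliferation, 8.06 ± 0.579 in control, 14.9 ± 1.82 with TNF and 15.3 ± 0.602 after siRNA.

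All 5 polymerase and primase genes fell and all 5 rose in each treated group. Prim1, the catalytic subunit of primase, was at 52.5, 61.8 and 55.1 CPM in proliferation, 17.9, 17.5 and 19.9 in control, 29.2, 29.4 and 29.5 with TNF and 33.6, 36.6 and 36.5 after siRNA. No libraries overlapped between groups, and siRNA lay above TNF. Prim1 fell by 1.62 (SE 0.066, adjusted p = 6.9e-15) and rose by 0.67 with TNF (SE 0.069, adjusted p = 4.3e-08) and by 0.95 after siRNA (SE 0.068, adjusted p = 1.8e-10). Pola1, the catalytic subunit of the primase polymerase, averaged 82.0 ± 3.07, 27.7 ± 0.637, 47.8 ± 2.65 and 46.7 ± 2.33 CPM in proliferation, control, TNF and siRNA. Its partner Pola2 averaged 46.0 ± 2.99, 18.9 ± 0.787, 27.3 ± 1.17 and 28.4 ± 1.42 CPM. Pold1, the catalytic subunit of the lagging strand polymerase, fell by 1.34, from 30.3 ± 1.03 to 11.96 ± 0.355 CPM, and was at 17.9 ± 1.32 with TNF and 20.6 ± 0.627 after siRNA. Pole, that of the leading strand polymerase, fell by 1.56, from 47.6 ± 4.11 to 16.2 ± 0.929 CPM, and was at 28.3 ± 0.769 and 26.4 ± 1.46.

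The sliding clamp and the strand-joining genes fell and rose with the polymerases, whereas the clamp loader subunits moved unequally. Pcna, the clamp, had 204, 253 and 234 CPM in proliferation, 77.6, 83.9 and 85.6 in control, 133, 142 and 150 with TNF and 133, 148 and 132 after siRNA. TNF and siRNA overlapped throughout. Pcna fell by 1.48 (SE 0.073, adjusted p = 2.7e-12) and rose by 0.78 with TNF (SE 0.073, adjusted p = 5.3e-08) and by 0.74 after siRNA (SE 0.073, adjusted p = 9.7e-08). Fen1, the nuclease that trims Okazaki flaps, averaged 60.0 ± 7.27, 24.1 ± 2.30, 36.7 ± 1.35 and 32.7 ± 0.438 CPM in the same order. Lig1, the ligase that seals the fragments, averaged 91.3 ± 3.87, 29.7 ± 0.753, 52.0 ± 0.945 and 53.6 ± 1.35 CPM.

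Of the clamp loader subunits, Rfc4 stood at 40.6, 44.8 and 41.4 CPM in proliferation, 10.7, 9.93 and 12.6 in control, 18.4, 17.1 and 17.1 with TNF and 22.3, 24.4 and 23.5 after siRNA. Its groups did not overlap. Rfc4 fell by 1.94 (SE 0.074, adjusted p = 2.4e-15) and rose by 0.67 with TNF (SE 0.079, adjusted p = 3.8e-07) and by 1.08 after siRNA (SE 0.077, adjusted p = 1.8e-10). Rfc5 fell by 1.52, from 64.5 ± 5.32 to 22.5 ± 2.35 CPM, and was at 32.6 ± 1.16 with TNF and 39.0 ± 1.62 after siRNA. Rfc3 differed from both. It had 40.5, 46.2 and 41.8 CPM in proliferation, 29.6, 29.7 and 28.4 in control, 28.4, 29.9 and 30.1 with TNF and 25.8, 29.3 and 26.9 after siRNA, so the 3 groups at 48 h overlapped. Rfc3 fell by 0.55 from proliferation to control (SE 0.060, adjusted p = 4.7e-08), and the difference from control was 0.01 with TNF (95% interval -0.12 to 0.14, adjusted p = 0.91) and -0.10 after siRNA (95% interval -0.23 to 0.03, adjusted p = 0.17). Within libraries, the log2 ratio of Rfc3 over Rfc4 was 0.02 ± 0.02 in proliferation, 1.41 ± 0.21 in control, 0.75 ± 0.11 with TNF and 0.22 ± 0.04 after siRNA. The printed stretch of Rfc3 is limited to 30 bases around its 2 long E2F elements. The stretches of Mcm5 and Mcm6, which rose in both treated groups, hold long elements too. The part of these elements in the levels was not tested.

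The nucleotide supply genes included both the largest changes among the members and those that set TNF and Fbxl2 siRNA furthest apart. Tk1, the S-phase thymidine kinase, was at 114, 118 and 121 CPM in proliferation, 21.3, 23.9 and 26.9 in control, 55.1, 59.6 and 59.7 with TNF and 53.3, 65.9 and 58.6 after siRNA. It had the largest log2 fold changes of the 35 genes in the comparisons with or of control, a fall by 2.29 (SE 0.078, adjusted p = 6.2e-15) and rises of 1.28 with TNF (SE 0.079, adjusted p = 1.3e-10) and 1.31 after siRNA (SE 0.079, adjusted p = 9.5e-11). Tyms, thymidylate synthase, averaged 82.5 ± 4.56, 23.1 ± 1.54, 44.9 ± 2.73 and 45.5 ± 1.64 CPM in the same order. For neither gene were TNF and siRNA libraries apart.

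Ribonucleotide reductase is built from a large subunit, Rrm1, and a small subunit, which is Rrm2 in S phase. Rrm1 had 268, 311 and 285 CPM in proliferation, 176, 176 and 185 in control, 251, 232 and 239 with TNF and 172, 176 and 175 after siRNA. TNF libraries lay well above control and siRNA libraries at or just under it. Rrm1 fell by 0.69 (SE 0.051, adjusted p = 1.3e-10), rose with TNF by 0.43 (SE 0.051, adjusted p = 4.5e-07), and differed from control by -0.04 after siRNA (95% interval -0.15 to 0.07, adjusted p = 0.53). Rrm2 had 340, 436 and 388 CPM in proliferation, 143, 146 and 146 in control, 165, 161 and 168 with TNF and 226, 229 and 233 after siRNA. Here the siRNA libraries lay well above control and the TNF libraries just above it. Rrm2 fell by 1.42 (SE 0.063, adjusted p = 3.3e-14), and rose by 0.66 after siRNA (SE 0.063, adjusted p = 1.4e-08) and by 0.18 with TNF (SE 0.063, adjusted p = 0.019). The TNF call for Rrm2 was lost under 5 of 24 alternatives, among them without control library A, without control library B and without TNF library C. The log2 ratio of Rrm2 over Rrm1 within a library was 0.42 ± 0.07 in proliferation, -0.30 ± 0.03 in control, -0.55 ± 0.05 with TNF and 0.40 ± 0.02 after siRNA. By this ratio the siRNA libraries lay within the proliferation range, and the TNF libraries lay below control.

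**Figure D3:**
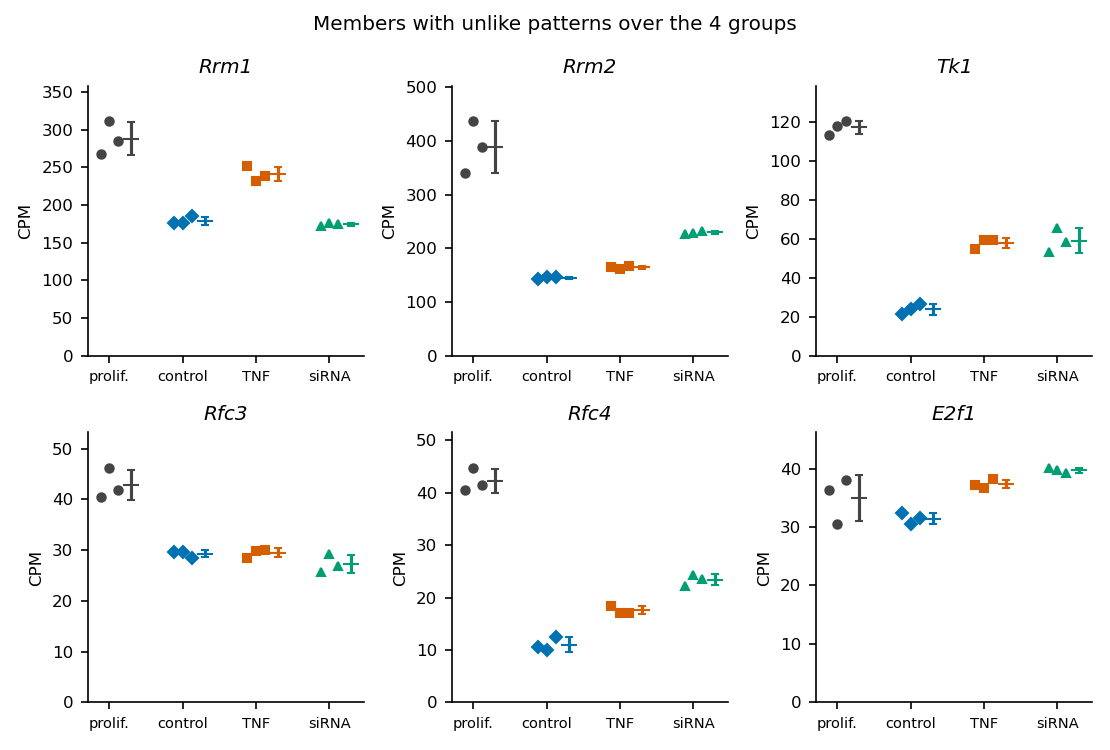
CPM of 6 members in each library (points, y axis from 0) with the mean and SD of 3 libraries beside them, for proliferation at 0 h and control, TNF and Fbxl2 siRNA at 48 h. Rrm1 was high with TNF and at the control level after siRNA, Rrm2 the reverse, Tk1 and Rfc4 rose in both, Rfc3 in neither, and E2f1 was within 30.4 to 40.1 CPM in every library.

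E2f1, an activator of S-phase genes, did not follow the other members. Its levels were 36.2, 30.5 and 37.98 CPM in proliferation, 32.4, 30.4 and 31.5 in control, 37.2, 36.7 and 38.1 with TNF and 40.1, 39.8 and 39.2 after siRNA. Proliferation overlapped control and TNF, and the siRNA libraries were the highest. E2f1 was called lower in control than in proliferation by 0.15 (SE 0.065, adjusted p = 0.039), a call lost under 13 of 24 alternatives, including each of 4 that leave out a library: proliferation A (adjusted p = 0.11) or C, and control B or C. It rose by 0.25 with TNF (SE 0.064, adjusted p = 0.0027) and by 0.34 after siRNA (SE 0.064, adjusted p = 0.00012).

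The cyclin E genes, whose proteins activate Cdk2 at entry into S phase, did follow, although the rise of Ccne1 with TNF was small. Ccne2 was at 44.9, 74.2 and 57.1 CPM in proliferation, 15.9, 17.03 and 17.2 in control, 32.2, 27.8 and 29.2 with TNF and 37.2, 41.9 and 37.0 after siRNA. Relative to its mean it had the widest spread of the members in proliferation, with library A lowest. Ccne2 fell by 1.81 (SE 0.17, adjusted p = 3e-06), or by 1.97 without proliferation library A, and rose by 0.84 with TNF (SE 0.17, adjusted p = 0.0022) and 1.22 after siRNA (SE 0.17, adjusted p = 0.00013). Ccne1 had 27.2, 36.4 and 36.1 CPM in proliferation, 12.6, 13.3 and 13.9 in control, 17.3, 15.3 and 16.3 with TNF and 18.8, 21.1 and 22.01 after siRNA. It fell by 1.32 (SE 0.098, adjusted p = 6.3e-10) and rose by 0.64 after siRNA (SE 0.10, adjusted p = 2.9e-05). Its rise with TNF was 0.30 (SE 0.10, adjusted p = 0.022) and was lost under 6 of 24 alternatives, among them without control A, control B or TNF A.

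The 4 genes that duplicate chromatin all fell and all rose in each treated group. Uhrf1, which brings the maintenance methyltransferase to newly copied DNA, stood at 142, 153 and 159 CPM in proliferation, 41.1, 43.0 and 44.8 in control, 88.9, 87.9 and 92.7 with TNF and 91.6, 88.1 and 96.5 after siRNA. TNF and siRNA overlapped and lay above control in every library. Of all members it had the smallest p in the comparisons of TNF and of siRNA with control, with rises of 1.06 for TNF (SE 0.054, adjusted p = 7.9e-13) and 1.10 for siRNA (SE 0.054, adjusted p = 7.6e-13). The histone chaperone subunits Chaf1a and Chaf1b fell by 1.63 and 1.59. Chaf1a averaged 57.3 ± 6.75, 18.6 ± 0.747, 35.2 ± 1.78 and 35.1 ± 0.125 CPM in proliferation, control, TNF and siRNA, and Chaf1b 34.7 ± 3.75, 11.5 ± 0.228, 20.01 ± 0.402 and 20.5 ± 0.641 CPM. Slbp, which binds the stem-loop of histone mRNAs, was at 78.2, 107 and 92.01 CPM in proliferation, 43.2, 43.4 and 43.9 in control, 68.3, 59.9 and 59.6 with TNF and 67.9, 78.3 and 72.4 after siRNA. Slbp was the only member whose siRNA libraries overlapped those of proliferation, at 78.3 CPM in the highest of the former and 78.2 in the lowest of the latter. Of the members, 33 lay below proliferation without overlap after siRNA and 1 above it. Over all genes tested, 31.8% lay below and 32.2% above.

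How far each treated group lay between control and proliferation was expressed as a position, in percent, on the log2 CPM scale, where 0% is the control mean and 100% the proliferation mean. The median position of the 35 genes was 48.7% with TNF and 49.9% after siRNA, which is a description, since both use the same control and proliferation libraries. In the licensing genes the median was 51.2% with TNF and 43.0% after siRNA, and 1 of the 8 (Mcm7) was further along after siRNA. In helicase activation it was 45.0% with TNF and 47.4% after siRNA, and 5 of 5 were further along after siRNA. Of these 5, only 2 were called between TNF and siRNA, and 3 were not. The genes of a role share the same libraries, so they are not separate evidence. Polymerases stood at 43.1% and 48.2%, clamp and joining genes at 40.9% and 51.2%, and chromatin genes at 53.6% and 58.6%. E2f1, whose control and proliferation means were only 0.14 apart on this scale, stood outside it at 172% with TNF and 234% after siRNA. Of the other members, Rrm1 stood at 62.5% with TNF and -5.64% after siRNA, Rrm2 at 12.9% and 46.9%, Ccne1 at 22.4% and 48.3%, Gins3 at 45.9% and 70.3%, and Rfc3 at 1.91% and -18.4%. By group means, 20 members were ordered proliferation, siRNA, TNF, control from high to low, 12 were ordered proliferation, TNF, siRNA, control, Rfc3 and Rrm1 had siRNA lowest, and E2f1 had siRNA highest.

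**Figure D4:**
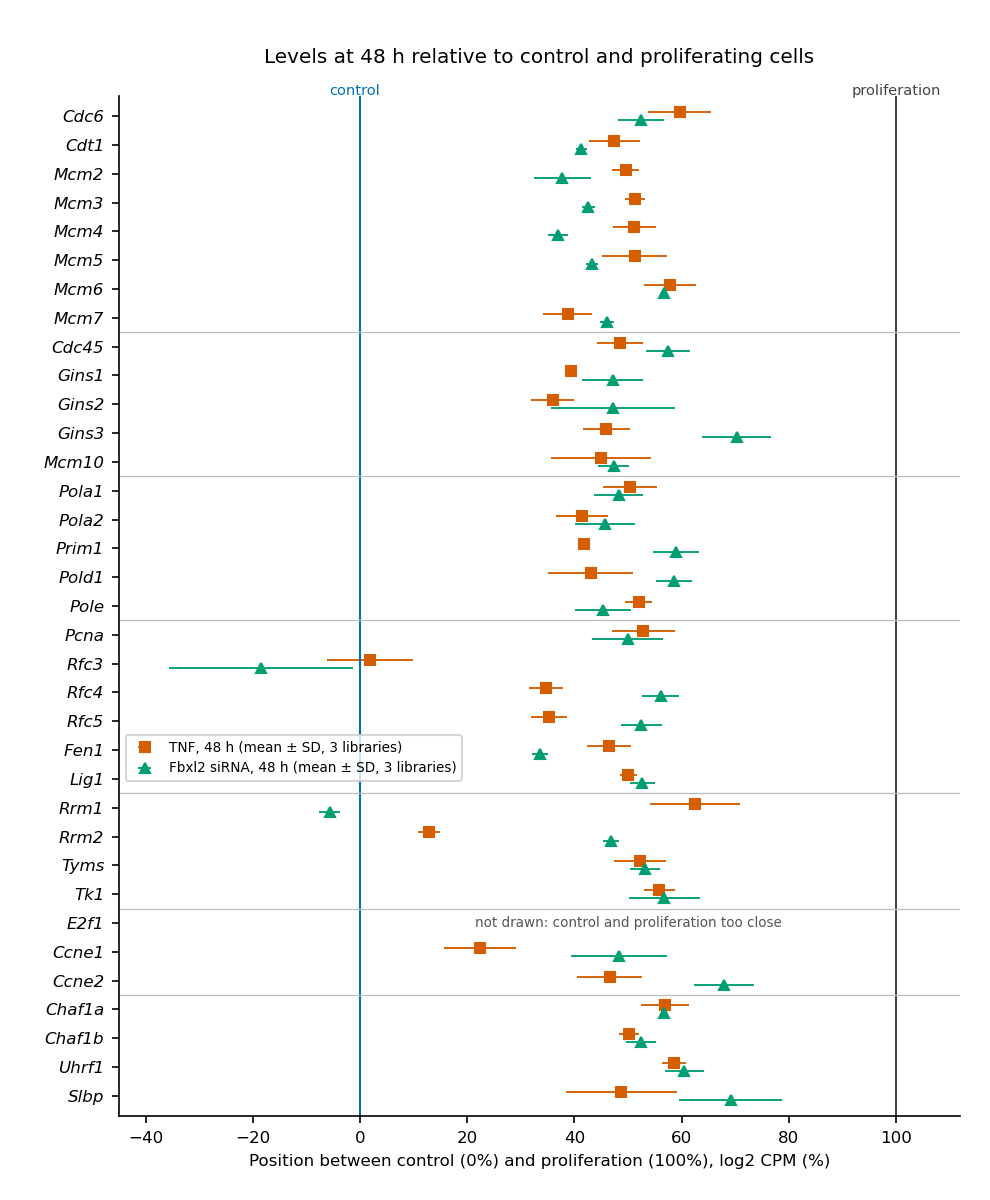
For 34 of the 35 genes, the x axis gives the position of TNF (orange squares) and Fbxl2 siRNA (green triangles) libraries between the control mean at 0% and the proliferation mean at 100%, as mean and SD of 3 libraries. E2f1 is not drawn because its control and proliferation means were too close. Most points lie near the middle, Rrm1, Rrm2, Ccne1 and Gins3 have the widest gaps between the treated groups of the genes drawn, and Rfc3 lies near or below 0%.

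The members other than E2f1 stayed below proliferation. Compared with proliferation, 34 of 35 were lower with TNF (median -0.78), against 36.5% of all genes called lower and 36.3% called higher. After Fbxl2 siRNA 34 of 35 were lower than in proliferation (median -0.76), against 31.1% of all genes called lower and 30.9% called higher. The remaining member was E2f1, which was 0.18 higher after siRNA than in proliferation (SE 0.064, adjusted p = 0.017) and differed by 0.10 with TNF (95% interval -0.04 to 0.23, adjusted p = 0.19). The siRNA call was lost without proliferation library B (0.10), and a TNF call appeared without proliferation library C (0.16). Without proliferation library A the medians were -0.85 for TNF and -0.83 for siRNA, and the fall from proliferation to control had a median of -1.57, with 34 of 35 called.

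TNF and Fbxl2 siRNA were then compared with each other, which uses no control library. Of all genes tested, 29.9% were called higher with TNF and 30.6% higher after siRNA. Of the 35 replication genes, 5 were called higher with TNF (14 had a log2 fold change above 0) and 9 higher after siRNA, with a median of -0.04 against -0.0078 over all genes. With upper quartile scaling the counts were 2 and 11. Higher with TNF were Mcm2 (0.18, SE 0.050, adjusted p = 0.0037), Mcm3 (0.15, SE 0.046, adjusted p = 0.0065), Mcm4 (0.18, SE 0.057, adjusted p = 0.0097), Mcm5 (0.15, SE 0.063, adjusted p = 0.045) and Rrm1 (0.47, SE 0.052, adjusted p = 1.2e-07). Of these 5, 4 were subunits of the helicase ring, with differences of at most 1.13-fold. The calls for Mcm3, Mcm4 and Mcm5 were lost with upper quartile scaling. A further subunit, Mcm7, was lower with TNF by 0.11 (SE 0.046, adjusted p = 0.043). The other 8 that were lower with TNF than after siRNA were Rrm2 (-0.48, SE 0.062, adjusted p = 1.3e-06), Rfc4 (-0.41, SE 0.073, adjusted p = 6.1e-05), Ccne1 (-0.34, SE 0.10, adjusted p = 0.0072), Prim1 (-0.28, SE 0.065, adjusted p = 0.001), Gins3 (-0.26), Rfc5 (-0.26), Pold1 (-0.21) and Cdc45 (-0.17, SE 0.067, adjusted p = 0.037).

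The calls for Mcm2, Rrm1, Rrm2, Rfc4 and Prim1 held under all 24 alternatives. Those for Mcm7, Mcm5 and Cdc45 were lost under 15, 10 and 9 of them. Those for Mcm3 and Mcm4 were each lost under 2, with upper quartile scaling and without the libraries of letter C. Leaving out a library ended the Mcm5 call without control B, TNF C or any of the siRNA libraries, the Cdc45 call without TNF A or B or siRNA A or C, the Pold1 call without TNF A, and the Mcm7 call without proliferation C, TNF A or B, or any of the control or siRNA libraries. The other 21 members were not called, although leaving out proliferation A or B gave a call for Ccne2, Slbp and Fen1, leaving out TNF A or siRNA A gave one for Slbp, and leaving out siRNA B gave one for Rfc3. Their 95% intervals ran from -0.42 to 0.40 apart from that of Ccne2 (-0.74 to -0.02), so differences of that size remain possible. Closest to no difference were Chaf1a (0.00, 95% interval -0.14 to 0.15), Mcm6 (0.01, 95% interval -0.08 to 0.11) and Tyms (-0.02, 95% interval -0.14 to 0.11).

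**Figure D5:**
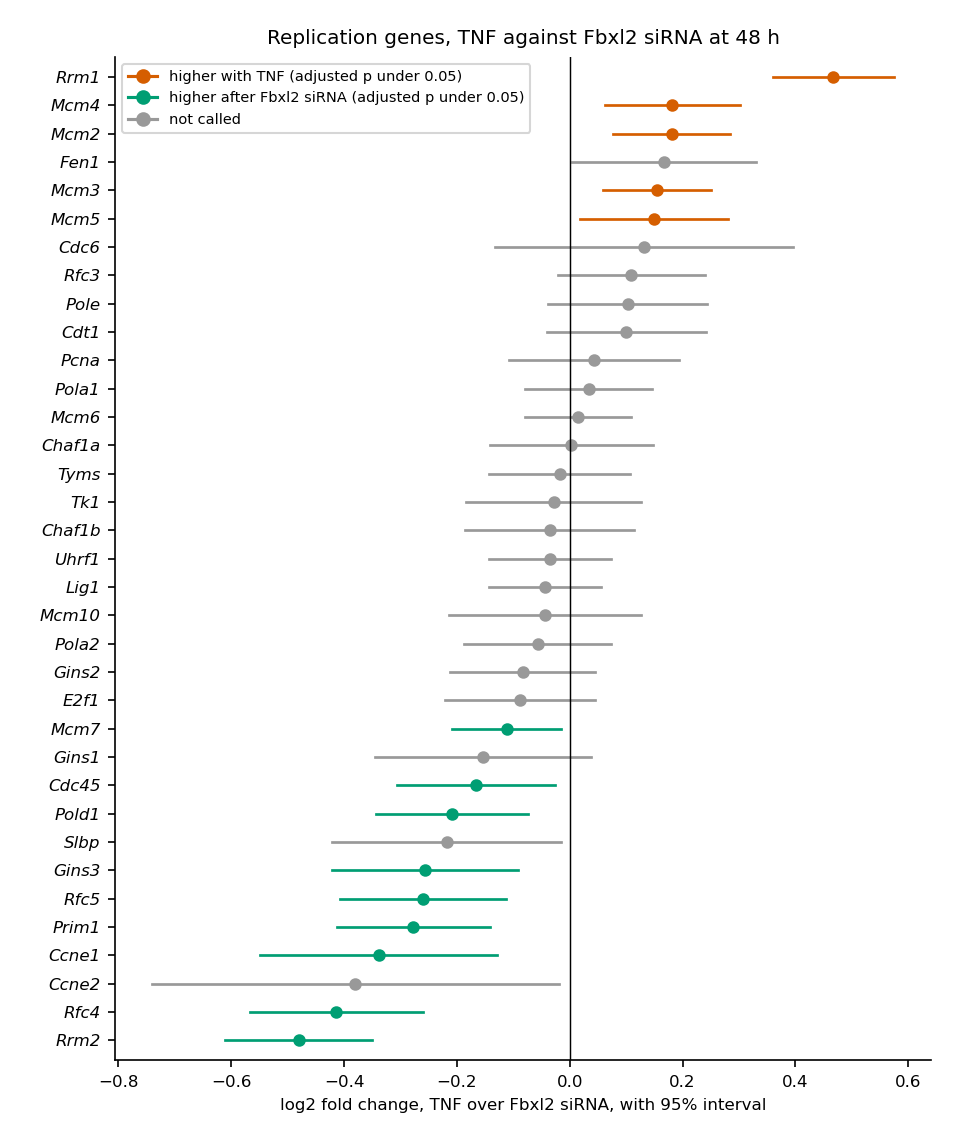
Log2 fold change of TNF over Fbxl2 siRNA for the 35 genes, sorted, with 95% intervals as lines: orange genes were called higher with TNF, green genes higher after siRNA, and grey genes were not called. Rrm1 lies at the top at 0.47 and Rrm2 at the bottom at -0.48, and the other members lie between -0.41 and 0.18.

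Levels between genes were compared per kb of exon (union of the annotated exons of a gene), which understates genes whose annotation includes long or unused exons. In proliferating cells Rrm2 was the highest member at 140 CPM per kb, followed by Pcna at 95.9 and Mcm6 at 51.9, and Mcm10 was the lowest at 4.05. In control cells Rrm2 stood at 52.3, Pcna at 34.3 and Mcm6 at 23.0 CPM per kb, again the highest, and Mcm10 at 1.05. Within the helicase ring, whose subunits assemble in equal numbers, levels in proliferation ran from 19.8 (Mcm2) to 51.9 CPM per kb (Mcm6).

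A further 81 genes of the same processes, none of them members, were followed in 7 lists, and all were tested. From proliferation to control, 72 fell, 4 rose and 5 were not called, with a median log2 fold change of -1.06. With TNF 64 were higher than control and 4 lower (median 0.37), and after Fbxl2 siRNA 65 were higher and 5 lower (median 0.47). Between TNF and siRNA, 16 were higher with TNF and 24 higher after siRNA, with a median of -0.04, as for the members. In the comparison of control with proliferation and in those of the treated groups with control, the medians had the members' sign and were smaller in size.

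Among other licensing and origin genes, 11 of 11 fell, 10 rose with TNF and 8 after siRNA, and 1, the helicase relative Mcm9, was lower after siRNA by 0.18. The smallest p in that list belonged each time to Gmnn, which encodes geminin, the inhibitor of Cdt1, at 52.8 ± 5.72 CPM in proliferation, 12.6 ± 0.749 in control, 21.4 ± 1.19 with TNF and 30.6 ± 2.04 after siRNA. Among origin firing and fork genes, 15 of 15 fell and 14 of 15 rose in each treated group. The smallest p belonged to Mtbp for the fall (-1.73), to the checkpoint scaffold Topbp1 with TNF (0.83) and to cyclin A2, Ccna2, after siRNA (1.20). Of 9 other polymerase subunits 8 fell, 7 rose with TNF and 8 after siRNA. Pole2 had the smallest p for the fall (-1.89) and with TNF (0.89), and Pold2 after siRNA (0.76). Primpol, a primase that restarts forks, was higher in control than in proliferation by 0.69, and Pold4, an accessory subunit, was lower with TNF by 0.29.

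Of 15 other clamp loading, strand and Okazaki genes 13 fell, 12 rose with TNF and 12 after siRNA. The smallest p was each time that of Top2a, the topoisomerase that untangles copied chromosomes, with -1.90, 0.94 and 1.04, which were not the widest changes in the list. Top1 went the other way, with 0.24 from proliferation to control (adjusted p = 0.00088), -0.14 with TNF (adjusted p = 0.038) and -0.20 after siRNA (adjusted p = 0.0044), and Chtf8 was lower after siRNA by 0.12. Of 11 other chromatin genes 11 fell, 8 rose with TNF and 7 after siRNA. By smallest p the first was the histone chaperone Asf1b with TNF (1.09), and Mms22l for the fall (-1.54) and after siRNA (0.77).

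Of 11 other nucleotide supply genes 9 fell, 8 rose with TNF and 9 after siRNA. Dut, which removes dUTP, had the smallest p for the fall (-1.77) and after siRNA (1.13). Samhd1, an enzyme that breaks down deoxynucleotides, was at 84.3, 85.8 and 91.1 CPM in proliferation, 119, 122 and 116 in control, 235, 222 and 233 with TNF and 114, 113 and 115 after siRNA. It was therefore higher in control than in proliferation (0.45), rose further with TNF (0.95, SE 0.044, adjusted p = 1.6e-13), and differed from control by -0.06 after siRNA (adjusted p = 0.23). The mitochondrial kinase Tk2 was higher in control than in proliferation by 0.34. Rrm2b, the small reductase subunit used outside S phase, was at 47.5 ± 4.004 CPM in proliferation, 42.2 ± 0.0503 in control, 33.8 ± 2.98 with TNF and 48.1 ± 1.29 after siRNA, so that with TNF it fell by 0.32 (SE 0.065, adjusted p = 0.00029).

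The other E2F and partner genes were mixed. Of 9, 5 fell from proliferation to control and 4 were not called. With TNF 5 rose and E2f2 fell by 0.69 (SE 0.058, adjusted p = 2.4e-09), from 52.4 ± 1.24 to 32.6 ± 1.85 CPM. After siRNA 7 rose, E2f2 among them at 60.2 ± 0.559 CPM (0.20, SE 0.056, adjusted p = 0.0036), and E2f3 and the partner Tfdp2 were lower by 0.15 and 0.17. The repressors E2f7 and E2f8, which are themselves transcribed in S phase, had the smallest p with TNF (E2f7, 0.92) and after siRNA (E2f8, 0.84), and Tfdp1 for the fall (-1.29).

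Markers of differentiated muscle went the opposite way to the replication genes, and other marker lists did not all do so. The 6 differentiated muscle markers found in the table (of 8, with Mymk and Mymx not matched by symbol) summed to 42.4 to 55.03 CPM in proliferation, 2013 to 2407 in control, 441 to 615 with TNF and 647 to 1015 after siRNA. All 6 rose from proliferation to control, and all 6 were lower than control with TNF (median -2.13) and after siRNA (median -1.18). Myog, the regulator that starts differentiation, averaged 22.5 ± 2.31, 302 ± 21.97, 79.9 ± 10.6 and 104 ± 23.9 CPM in proliferation, control, TNF and siRNA. The 6 myoblast markers summed to 1422 to 1568, 1744 to 1813, 985 to 1044 and 1732 to 1821 CPM in the same order, so siRNA overlapped control. With TNF 5 of them were lower than control, and after siRNA 2 were higher and 3 lower (median -0.08). One of these, Msc, a repressor of myogenic factors, averaged 16.2 ± 1.24, 4.20 ± 0.174, 4.28 ± 0.523 and 24.3 ± 0.966 CPM, so it fell to control and was higher after siRNA, as the replication genes were, but with TNF it differed from control by 0.02 (adjusted p = 0.89).

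Genes known as markers of other cell types, 5 for each, were also followed in these libraries of a single cell line. Those of fibroblasts summed to 42.3 to 52.2, 498 to 528, 152 to 164 and 386 to 460 CPM in proliferation, control, TNF and siRNA. Most of that sum was Dcn, a matrix proteoglycan, at 29.3 ± 4.40, 488 ± 16.1, 119 ± 4.88 and 394 ± 36.1 CPM. The other fibroblast markers were mixed. Pdgfra rose from 15.8 ± 0.839 to 32.4 ± 2.74 CPM with TNF and was at 16.9 ± 1.195 after siRNA. Dpt rose from 4.75 ± 0.360 to 10.8 ± 0.892 CPM after siRNA and was at 4.77 ± 0.239 with TNF. Lum fell with Dcn under TNF, from 1.08 ± 0.167 to 0.0711 ± 0.0392 CPM, and was at 1.86 ± 0.278 after siRNA. Thy1 averaged at most 0.0126 CPM. The macrophage markers summed to 14.4 to 15.4, 8.42 to 9.46, 12.01 to 13.02 and 13.997 to 16.4 CPM, lowest in control without overlap, as were most of the replication genes. Most of that was Cd14, a receptor for bacterial lipopolysaccharide, at 13.4 ± 0.490, 6.57 ± 0.110, 10.4 ± 0.428 and 13.9 ± 1.33 CPM. The other macrophage markers did not share this course. Cd68 had its highest mean in control, at 1.147 ± 0.226, 1.58 ± 0.372, 0.867 ± 0.108 and 1.035 ± 0.0602 CPM in the same order. Csf1r was highest with TNF, at 0.210 ± 0.179, 0.694 ± 0.115, 1.12 ± 0.201 and 0.428 ± 0.0438 CPM. Adgre1 was at 0 in every library and Ptprc averaged at most 0.036 CPM. The endothelial markers summed to 0.62 to 0.85, 2.44 to 2.70, 0.64 to 0.96 and 1.63 to 2.38 CPM, and the adipocyte markers to at most 0.31 CPM with Cidec at 0 in every library. The part of these marker levels in the replication gene results was not tested.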

How the data were processed

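The authors deposited whole-number read counts per gene symbol for the 12 libraries. The submitters' processing notes list the mm10 build, CASAVA and DESeq2. The aligner, counter, strand setting and gene models were not given in the sources used here. Reads of overlapping, antisense or near-identical genes therefore cannot be separated. The authors' 3 tables of comparisons were not used.

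The deposited counts went unchanged into edgeR 4.0.16 (R 4.3.3): filterByExpr, TMM scaling, and a robust quasi-likelihood fit of 4 group means to all 12 libraries, with Benjamini-Hochberg adjustment over 12736 genes and calls under 0.05. SE is the absolute log2 fold change over the root of the F statistic. CPM were computed on TMM-scaled totals. Positions and ratios used the log2 of these CPM without a prior count. Correlations of deviations from group means used log2 CPM with a prior count of 2. The fit was tested on simulated counts. No pair of replicates was identical, and the chi-square per degree of freedom between replicates was 1.62 to 22.2. Alternatives changed the scaling, test (limma 3.58.1 voom, DESeq2 1.42.0), filter, dispersion, libraries and replicate letter. Gene coordinates and exon lengths came from GENCODE on GRCm38, promoters from RefSeq. All members were named by rule. Of the lists of other genes, the text names the gene of smallest p in a list, genes called against most of their list, and Rrm2b, E2f2 and single cell type markers after their values were seen. The members and lists were chosen with earlier results of these data known.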

Additional observations from a re-analysis of the deposited data

How the results depend on the processing

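Each comparison was repeated under 24 alternatives, and no member changed direction while called. Among 840 results per comparison (35 genes by 24 alternatives), the call kept its side of the threshold in 827 for control against proliferation, 827 for TNF against control, 840 for Fbxl2 siRNA against control, 770 for TNF against siRNA, 839 for TNF against proliferation and 836 for siRNA against proliferation. The medians over the 35 genes stayed between -1.58 and -1.52, 0.71 and 0.76, 0.72 and 0.77, -0.094 and -0.013, -0.85 and -0.75, and -0.83 and -0.73 in that order. The genes called higher with TNF than after siRNA numbered 2 instead of 5 with upper quartile factors, which shifted the median of all genes by -0.059 and left 15.4% of the called members higher with TNF instead of 35.7%, and 2 without the libraries of letter C, where 3 instead of 9 were called lower, with fewer samples in the fit. Leaving out a library in turn, the genes called higher than in proliferation (E2f1) ranged from 0 to 1 for siRNA and from 0 to 1 for TNF, and without letter B the count for siRNA was 0. With a replicate block for the letter, 6 instead of 5 genes were higher with TNF than after siRNA, and the other counts were as without it. Same-letter correlations of deviations from group means ran from -0.096 to 0.18 and those of other letters from -0.16 to 0.13. With 3 libraries in a group, these ranges cannot settle whether a letter marks a shared origin. The S numbers in the library titles ran from 1 to 4 for letter A and from 10 to 17 for B and C. What these numbers stand for is not stated, and their part in the results was not tested. The short E2F element was found in 19 members' windows instead of 12, since every long form contains it, and the long form before the start site only in 8. The lowest count of a member in a library was 124, and intervals cover the spread between libraries only.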
